A study of Homo sapiens with 19 samples.

Results

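Depletion of STAT3 was set directly against depletion of HMGN5 in MDA-MB-231 cells, a long-used human line that came from a triple-negative breast tumour. The comparison rests on 4 of the 19 samples of the series, taken by their titles: siSTAT3 replicates 1 and 2 and siHMGN5 replicates 1 and 2. All were uninfected cells transfected with siRNA at 30 nM using Lipofectamine RNAiMAX, in medium with 10% fetal bovine serum. A further 4 libraries of cells given control siRNA (NC) served to estimate the spread and to give the direction of each change. The lentiviral experiment, used for a second look, held control siRNA with an empty vector (NC_Vec), STAT3 siRNA with the empty vector (siSTAT3_Vec) and STAT3 siRNA with lentiviral HMGN5 (siSTAT3_HMGN5), with 3 libraries each. The labels do not say how many siRNA sequences were used against each target, nor that replicates were separate cultures. The p-values therefore measure the spread between these libraries, which may be technical.

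STAT3 is a transcription factor that is phosphorylated by JAK kinases downstream of cytokine receptors of the interleukin-6 family, moves to the nucleus and activates genes of survival, proliferation and inflammation. HMGN5 belongs to the high mobility group N proteins, which bind nucleosomes, compete with linker histone H1 and loosen chromatin. The series asked whether the HMGN5 protein takes part in STAT3-driven transcription, so transcripts that behaved differently after loss of one or the other bear on how far the 2 depletions overlap. The tables list transcripts by Ensembl ID only, so results are given by transcript, few are named, and the levels of STAT3, HMGN5 and cell line markers were not examined. In bulk RNA, fewer cells of a type and less RNA per cell cannot be told apart.

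The 4 knockdown libraries were of like depth, with 19114033 to 19238791 estimated reads, and detected 84179 to 85577 transcripts with at least 1 read. Transcripts under 300 bases took 1.56% to 1.7% of their reads, and the most abundant transcript took 2.91% to 3.31%, against 1.15% to 1.26% and 1.4% to 1.92% in NC. Replicates of a knockdown lay close together: over transcripts with unshared reads (those whose estimated reads were whole numbers, so that no read appeared to be divided between transcripts), the mean chi-square per transcript was 1.79 between siSTAT3 replicates and 1.79 between siHMGN5 replicates. Between the knockdowns it was 54.1 to 57.3. The NC libraries fell into 2 pairs that stood apart, with 1.99 and 2.32 inside the pairs and 41.8 to 47.9 between them. Libraries of a single treatment thus differed nearly as much between pairs as the knockdowns did, and since each knockdown is 1 pair of libraries, treatment and pair cannot be told apart.

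In the direct comparison, 1504 of 74346 transcripts (2.02%) were higher in siSTAT3 than in siHMGN5 and 1389 (1.87%) were lower, 3.89% in all (quasi-likelihood test of edgeR, adjusted p under 0.05 by Benjamini-Hochberg). The median separation was a log2 fold change of 1.32 among the higher transcripts and -1.43 among the lower ones, and it was 1.32 and -1.42 with means floored at the level of 3 reads. None of the called transcripts overlapped between the 2 groups. That alone is a weak criterion with 2 libraries against 2, since in 26.5% of all tested transcripts both siSTAT3 libraries lay above both siHMGN5 libraries and in 27.1% below them. Called transcripts were longer and more abundant than those tested: their median length was 2348.5 bases for the higher and 2362 bases for the lower, against 1201 bases for all, and their median level was 22.3 and 19.6 CPM against 2.25 CPM.

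The share of transcripts that separated the knockdowns followed the level. Below 1 CPM, 0.376% were higher and 0.451% lower in siSTAT3, between 10 and 50 CPM 5.46% and 5.05%, and at 100 CPM or more 12.4% and 9.12%. By length, 3.87% were higher and 3.99% lower among transcripts of 4000 bases or more. Among the 1325 tested transcripts under 300 bases, 21 were higher and 7 lower (1.58% and 0.528%). Longer transcripts collect more reads, so level and length were not examined apart.

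**Figure D1:**
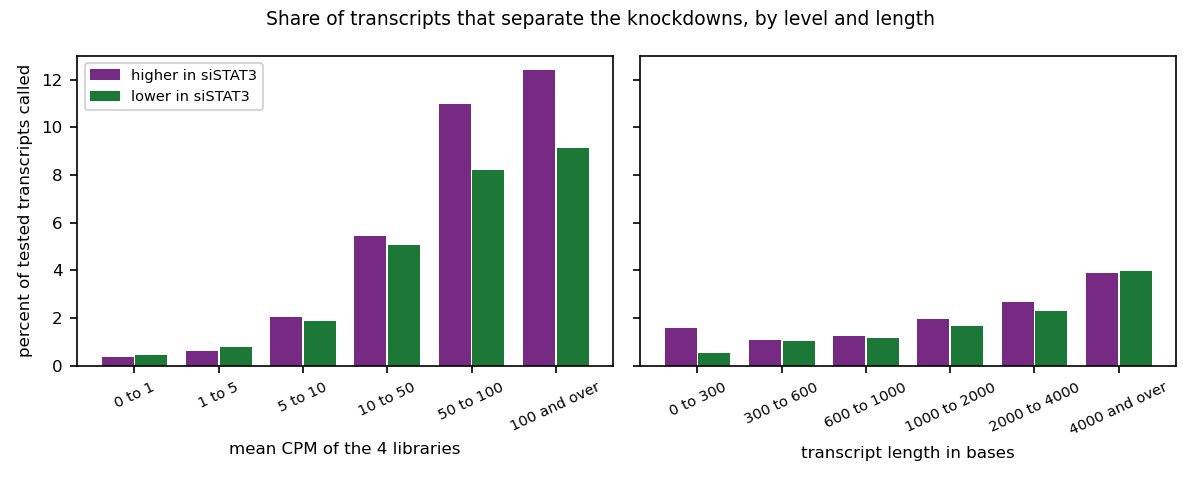
Percent of tested transcripts called higher (purple) or lower (green) in siSTAT3 than in siHMGN5, by transcript length in bases (right) and by mean CPM of the 4 knockdown libraries (left). The share goes with level, from under 1% below 1 CPM to 12.4% higher and 9.12% lower at 100 CPM or more.

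The number of calls depended on how the NC libraries entered the fit. With the NC pairs as separate groups, 3314 transcripts were higher and 3096 lower in siSTAT3, and these included 2878 of the 2893 calls above, in the same direction. In that fit 3262 transcripts (4.39% of those tested) also differed between the NC pairs. Of the 2893 calls, 133 (4.6%) differed between the NC pairs, whereas of the 6410 calls with separate pairs 1406 (21.9%) did. With NC as 1 group, a difference between the NC pairs counts as spread and works against a call, so the 4.6% is partly set by the fit. Without siSTAT3 replicate 1 or 2 the calls numbered 844 and 935, and without siHMGN5 replicate 1 or 2 they numbered 926 and 972, where the single library left takes its spread from the rest. The 1504 and 1389 transcripts therefore describe the separations that were large against the spread among all 8 libraries.

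At a mean of at least 5 CPM, the largest separations were transcripts present in one knockdown and at 0 reads in both libraries of the other. ENST00000394934.4 (2830 bases) lay at 443 and 384 CPM in the siSTAT3 libraries, at 0 in both siHMGN5 libraries and at 123, 89.3, 6.58 and 81.6 CPM in NC replicates 1 to 4. It was at least 2580-fold higher in siSTAT3 than in siHMGN5, taking siHMGN5 at the floor of 3 reads per library (adjusted p = 0.0298). Its siSTAT3 libraries stood above every NC library, but that difference did not pass the test (adjusted p = 0.255), while the fall in siHMGN5 against NC did (at least 468-fold, adjusted p = 0.0495). The direct call ended under 9 of 18 alternatives, among them each knockdown library left out, and NC replicate 1, 2 or 4 left out, with an adjusted p of up to 0.121 in these 7.

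ENST00000420886.6 (10981 bases) was at 57.3 and 46.5 CPM in siSTAT3, at 0 in both siHMGN5 libraries and at 11.6, 15.5, 30.4 and 20.2 CPM in NC. It was at least 324-fold higher in siSTAT3 than in siHMGN5 (adjusted p = 0.00427), and it fell at least 121-fold in siHMGN5 against NC (adjusted p = 0.0058). Against NC the siSTAT3 level was 2.67-fold higher without passing the test (adjusted p = 0.129).

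The mirror image was seen for 2 transcripts that were not detected in siSTAT3. ENST00000546260.5 (4302 bases) had 0 reads in both siSTAT3 libraries, 61.3 and 47.7 CPM in siHMGN5 and 45.8, 37.7, 47.0 and 36.4 CPM in NC, so the HMGN5-depleted libraries lay above every control and siSTAT3 below every one. It was at least 340-fold lower in siSTAT3 than in siHMGN5 (adjusted p = 0.00096) and at least 260-fold lower than in NC (adjusted p = 0.000806). The siHMGN5 level did not pass the test against NC (adjusted p = 0.347). ENST00000400556.7 (3925 bases) had 0 reads in siSTAT3, 66.8 and 26.9 CPM in siHMGN5 and 26.3 to 38.9 CPM in NC, so 1 siHMGN5 library lay above the NC range and the other inside it. It was at least 292-fold lower in siSTAT3 than in siHMGN5 (adjusted p = 0.00426). That call ended with only the 4 knockdown libraries in the fit (adjusted p = 0.0601) and with a replicate block (adjusted p = 0.0516). With limma-voom the calls of ENST00000394934.4, ENST00000420886.6 and ENST00000400556.7 all ended (adjusted p = 0.64, 0.154 and 0.227).

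Such on-or-off differences were a minority of the calls. Of the 3304 with 0 reads in both siHMGN5 libraries and some in siSTAT3, 193 (5.84%) were called. Of the 3547 with 0 reads in siSTAT3 and some in siHMGN5, 216 (6.09%) were. Among all 74346 tested, 2.02% were higher and 1.87% lower. Sets picked for 0 reads in a knockdown can be called in 1 direction only, so these shares do not compare like with like. All 1504 higher calls came from the 19672 tested transcripts with both siSTAT3 libraries above both siHMGN5 libraries. All 1389 lower calls came from the 20139 with both below. The 193 and 216 made up 12.8% of the higher and 15.6% of the lower calls, and leaving them aside left 1311 higher and 1173 lower. The 4 named above had reads that the authors' estimates divided between transcripts in at least 1 library, so a level of 0 may be a division of reads rather than a missing transcript. Only 1 called transcript in each direction had 0 reads in a knockdown and unshared reads.

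Transcripts with unshared reads gave graded differences. In the fit of all transcripts, 25 of the 462 tested (5.41%) were higher in siSTAT3 and 19 (4.11%) lower, 9.52% in all, against 2.02% and 1.87% of all transcripts. The 2 sets were not matched for level. At 10 CPM or more lay 162 of the 462, of which 21 were higher and 12 lower, and 20.9% of all tested, of which 6.84% were higher and 5.85% lower. Among called unshared transcripts with reads in both knockdowns the fold between group means ran from 1.45 to 8.03 for the 24 higher and from 1.64 to 7.02 for the 18 lower. The other 2 were at 0 reads in one knockdown, and with these at their bound the median fold was 2 for the higher and 2.74 for the lower. The higher of these 2, ENST00000296140.3, was at least 17.3-fold higher in siSTAT3, lay under the 5 CPM limit and was singled out after its value was seen. A fit of the 462 alone, adjusted over these only, called 32.7%, 83 higher (18%) and 68 lower (14.7%). Unshared transcripts held 0.741% to 0.774% of the reads of the knockdown libraries, so they are a small sample of the transcriptome.

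Among those with a mean of at least 5 CPM, ENST00000374024.3 (2115 bases) had the largest difference on the higher side, at 37.8 and 35.8 CPM in siSTAT3 and 4.08 and 5.09 CPM in siHMGN5. NC replicates 1 to 4 lay between, at 8.89, 11.2, 7.54 and 6.56 CPM. It was 8.03-fold higher in siSTAT3 than in siHMGN5 (log2 fold change 3 ± 0.293 SE, adjusted p = 0.00559). Against NC it rose 4.31-fold in siSTAT3 (36.8 ± 1.4 CPM, SD, n = 2, against 8.55 ± 2.02, SD, n = 4; adjusted p = 0.0066 by edgeR), whereas the siHMGN5 libraries, though below all 4 controls, did not pass the test (log2 fold change -0.90, adjusted p = 0.127). Both knockdowns thus lay outside the NC range, on opposite sides.

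ENST00000295927.3 (1940 bases) was separated through siHMGN5 instead. It was at 16.1 and 15.5 CPM in siSTAT3 and at 13.1, 15.8, 28.5 and 25.5 CPM in NC replicates 1 to 4. The siSTAT3 libraries thus lay inside the NC range but below NC replicates 3 and 4. In siHMGN5 it was at 2.52 and 2.16 CPM, below every control and 8.87-fold lower than the NC mean (adjusted p = 0.0124). The direct difference was 6.75-fold (log2 fold change 2.75 ± 0.413 SE, adjusted p = 0.0191), and it did not pass the test without siSTAT3 replicate 1 or 2 or without siHMGN5 replicate 1 or 2 (adjusted p of 0.0846, 0.0779, 0.11 and 0.122).

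On the other side, ENST00000295887.5 (4461 bases) was at 2.71 and 2.09 CPM in siSTAT3, 15.0 and 14.8 CPM in siHMGN5 and 10.4, 11.7, 10.0 and 8.29 CPM in NC. It was 6.22-fold lower in siSTAT3 than in siHMGN5 (log2 fold change -2.63 ± 0.247 SE, adjusted p = 0.00506) and 4.21-fold lower than in NC (adjusted p = 0.00676). The siHMGN5 libraries lay above all 4 controls without passing the test (adjusted p = 0.219). ENST00000223023.4 (4435 bases) was separated through siSTAT3: 15.6 and 16.0 CPM there, 71.5 and 70.9 CPM in siHMGN5 and 66.0, 64.3, 72.7 and 70.7 CPM in NC. It was 4.51-fold lower in siSTAT3 than in siHMGN5 (log2 fold change -2.17 ± 0.0985 SE, adjusted p = 0.00102) and 4.33-fold lower than in NC (adjusted p = 0.000797), while siHMGN5 and NC differed by a log2 fold change of 0.06 ± 0.0812 (adjusted p = 0.831). ENST00000374024.3, ENST00000295887.5 and ENST00000223023.4 stayed past the threshold in all 18 alternatives, with an adjusted p of at most 0.0465. Per length, the 4 lay at low levels in NC, with mean TPM of 2.5, 6.8, 1.34 and 9.24 in the order given.

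**Figure D2:**
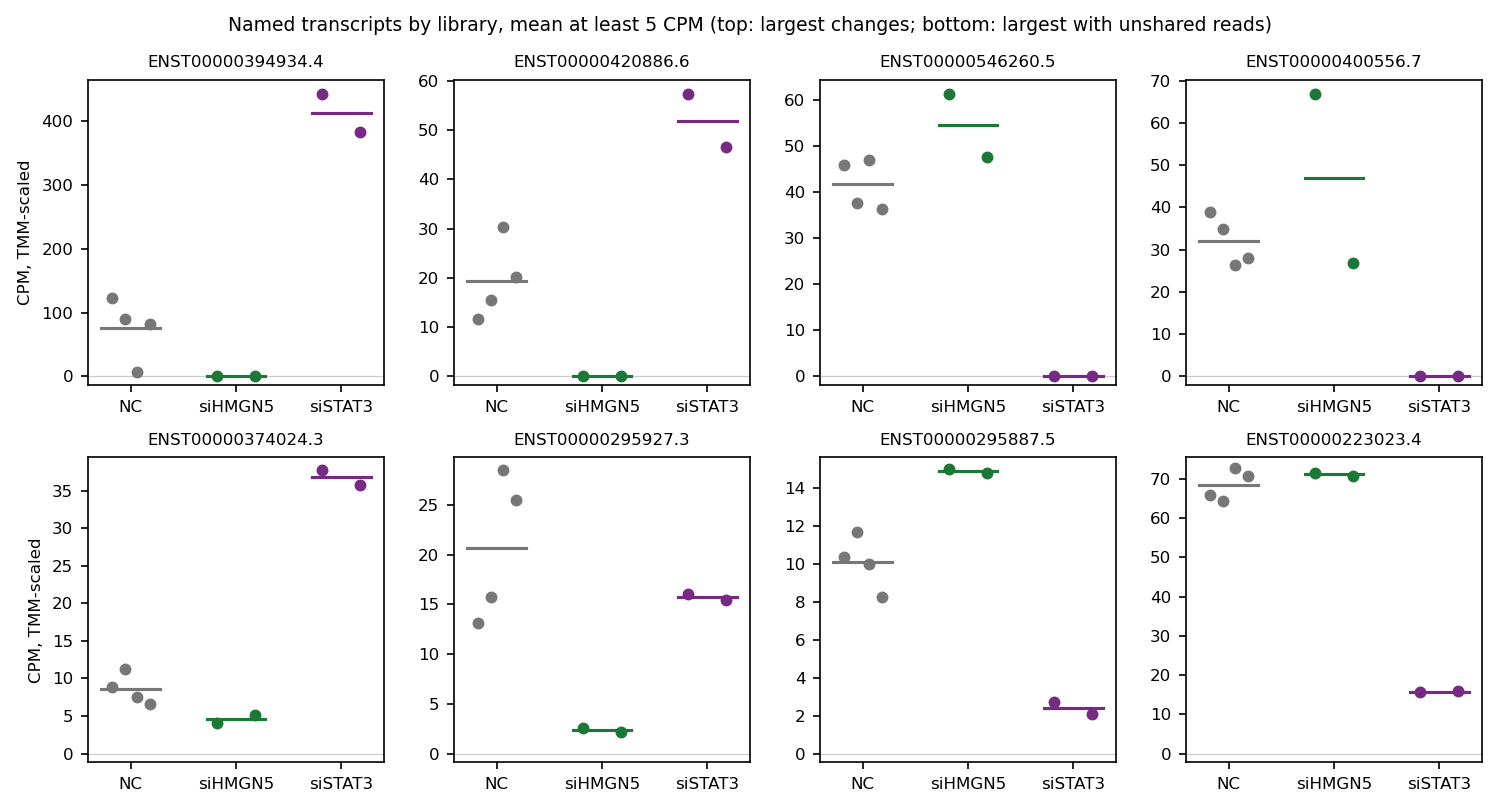
CPM (TMM-scaled) of the 8 named transcripts in NC (grey), siHMGN5 (green) and siSTAT3 (purple), each point a library and each line a group mean. In the upper row one knockdown lies at 0 reads, and in the lower row, where reads were unshared, the knockdowns differ by 4.51-fold to 8.03-fold.

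The direction in each knockdown was read against NC in the same fit, where siSTAT3 had calls for 4.28% of transcripts, 1011 higher (1.36%) and 2170 lower (2.92%), and siHMGN5 for 3.39%, 701 higher (0.943%) and 1820 lower (2.45%). These comparisons share their libraries with the direct one and the NC libraries with each other, so the classes below describe the calls and are no further test of them. Of the 1504 transcripts higher in siSTAT3 than in siHMGN5, 874 had fallen in siHMGN5 and 333 had risen in siSTAT3, of which 41 did both. Of the 1389 lower in siSTAT3, 966 had fallen in siSTAT3 and 199 had risen in siHMGN5, of which 39 did both. Most separations that could be assigned were thus a fall in the knockdown with the lower level rather than a rise in the other. In each of 16 alternatives that gave all 3 comparisons the falls outnumbered the rises on both sides, and falls outnumbered rises among all calls against NC as well.

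Single groups of calls made up the largest shares. In 802 transcripts siHMGN5 fell with no call in siSTAT3: the median log2 fold change (floored) was -1.43 in siHMGN5 and 0.03 in siSTAT3, and in 244 of them both siSTAT3 libraries lay inside the NC range. In 867 transcripts siSTAT3 fell with no call in siHMGN5, with medians of -1.58 in siSTAT3 and 0.01 in siHMGN5, and in 253 of them both siHMGN5 libraries lay inside the NC range. That range spans NC pairs that stood apart, and the share of all tested transcripts inside it was not counted. Transcripts at 0 reads in the fallen knockdown numbered 175 of the 802 and 200 of the 867. A rise in siSTAT3 with no call in siHMGN5 was found for 288 transcripts (median 1.01 in siSTAT3 and -0.17 in siHMGN5) and a rise in siHMGN5 with no call in siSTAT3 for 158 (median 1.01 in siHMGN5 and -0.23 in siSTAT3). A further 338 higher and 263 lower transcripts passed the test between the knockdowns but against NC in neither.

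**Figure D3:**
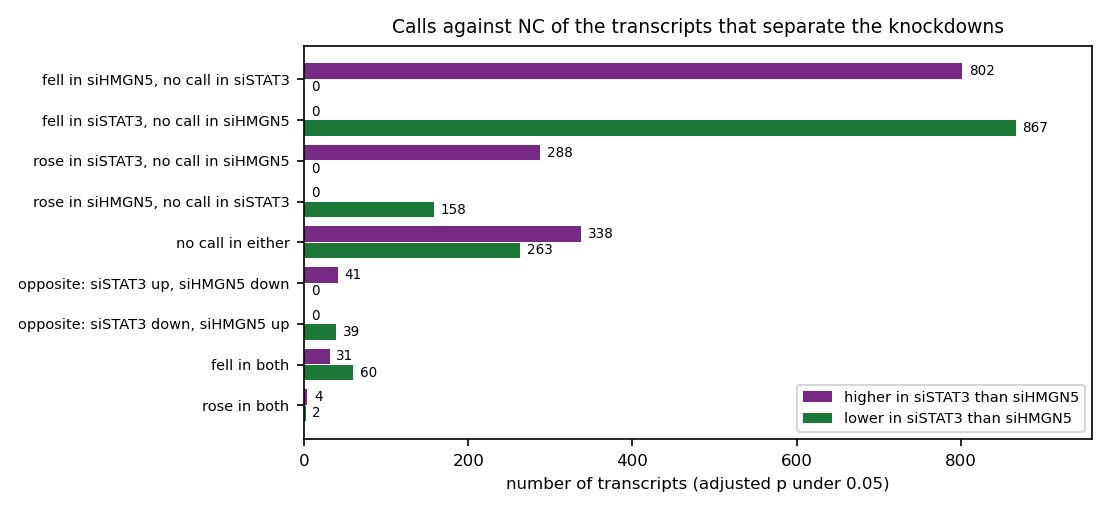
Number of transcripts higher (purple) or lower (green) in siSTAT3 than in siHMGN5, split by their calls against NC in each knockdown. The longest bars are 867 transcripts that fell in siSTAT3 and 802 that fell in siHMGN5, each with no call in the other knockdown.

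Opposite directions in the 2 knockdowns were called for 80 transcripts. The 41 that rose in siSTAT3 and fell in siHMGN5 had median log2 fold changes of 0.85 and -0.96 and a median separation of 1.71. The 39 that fell in siSTAT3 and rose in siHMGN5 had medians of -0.84 and 0.67 and a median separation of -1.56. In all 80, the 4 NC libraries lay between the knockdowns with no overlap, and 35 of the 41 and 32 of the 39 passed the test in the same directions against each NC pair taken alone. The 80 were picked by calls against these same NC libraries, so both counts follow largely from that choice and are no separate check. The share of all tested transcripts with such a separation was not counted. Their median levels were 56.1 and 65.4 CPM, and 1 of each set was at 0 reads in a knockdown. The count of 80 became 673 with DESeq2, 258 and 227 with only NC replicates 1 and 2 or only NC replicates 3 and 4, and 33 without a low-count filter. It was lower when libraries were left out, at between 34 and 42 without any 1 NC library and at 13, 10, 8 and 9 without siHMGN5 replicate 1 or 2 or siSTAT3 replicate 1 or 2.

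Falls in both knockdowns that were unequal in size formed 2 sets. In 60 the fall was deeper in siSTAT3, with medians of -1.80 in siSTAT3 and -0.77 in siHMGN5, and in 31 it was deeper in siHMGN5, with medians of -0.74 in siSTAT3 and -1.70 in siHMGN5. Unequal rises were called for 6, of which 4 were higher in siSTAT3 and 2 in siHMGN5.

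**Figure D4:**
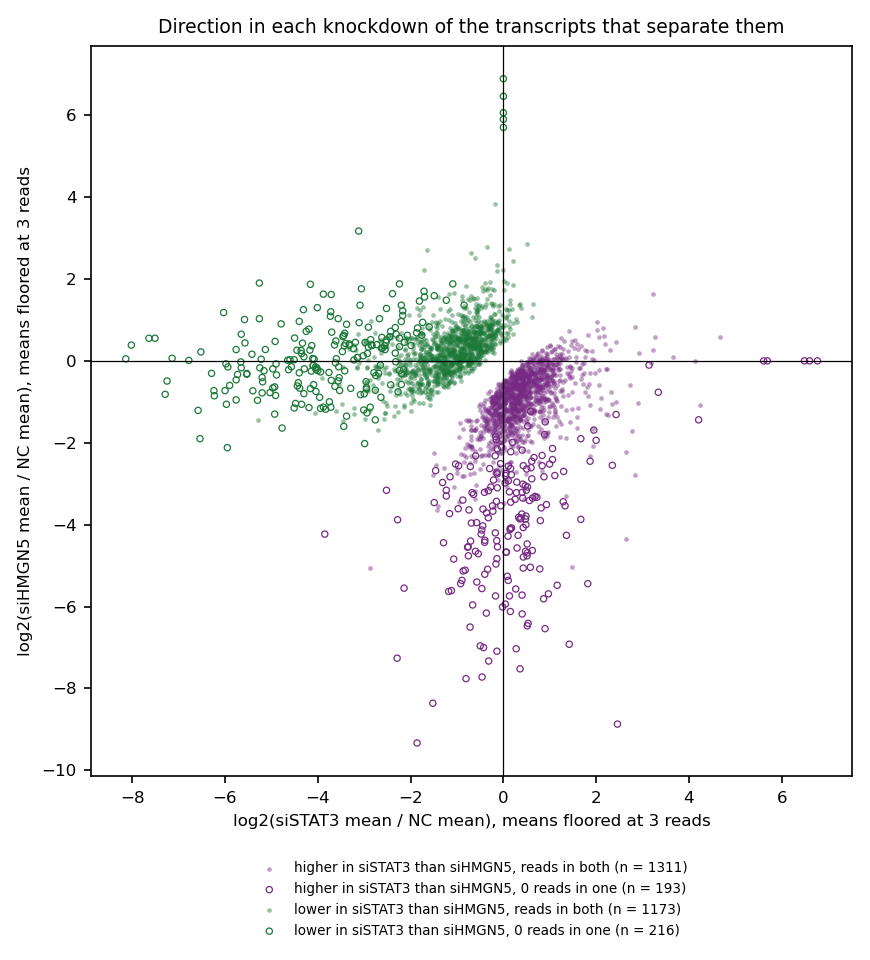
Log2 ratio to the NC mean in siSTAT3 (horizontal) and in siHMGN5 (vertical) for each transcript called between the knockdowns, with means floored at 3 reads, and open circles for transcripts at 0 reads in both libraries of one knockdown. Points lie on either side of an empty diagonal band because only called differences are drawn, and the arms along the axes, where one knockdown stays near NC, hold most of the open circles.

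The assignment to a knockdown was then made against each NC pair apart. Of the 874 transcripts lowered in siHMGN5, 838 were lower against both pairs, and of the 966 lowered in siSTAT3, 936 were. Of the 333 raised in siSTAT3, 296 were higher against both pairs, and of the 199 raised in siHMGN5, 167 were. The classes had been picked by calls against these same 4 NC libraries. The fit with separate pairs also made more calls in the direct comparison, 6410 instead of 2893. High counts were thus largely set in advance, and they are no separate check of the assignment. Without siHMGN5 replicate 1 or 2 the 874 became 405 and 370 and the 199 became 15 and 13. Without siSTAT3 replicate 1 or 2 the 966 became 434 and 460 and the 333 became 22 and 24. Leaving out a library of the other knockdown also reduced each class, to 259 and 268 for the 874, 36 and 41 for the 199, 325 and 345 for the 966, and 57 and 58 for the 333. Without NC replicate 1, 2, 3 or 4 the 333 became 213, 217, 217 and 205, and the 199 became 120, 124, 125 and 115.

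Among unshared transcripts the directions on the higher side were near even. Of the 25 higher in siSTAT3, 12 had fallen in siHMGN5 and 11 had risen in siSTAT3, with 2 counted in both, and 1 had fallen in siSTAT3 as well. In 20 of the 25 both siHMGN5 libraries lay below every NC library, and in 19 both siSTAT3 libraries lay above every one. Of the 19 lower in siSTAT3, 12 had fallen in siSTAT3 and 1 had risen in siHMGN5, and in 18 both siSTAT3 libraries lay below every NC library. Both sets were picked for a gap between the knockdowns, so the counts of libraries outside NC may follow in part from that choice. They are no separate check of the direction. How often tested unshared transcripts as a whole lay outside every NC library in this way was not counted.

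The lentiviral experiment shares no library with the direct comparison and gave a separate reading of STAT3 depletion. There siSTAT3_Vec against NC_Vec called 14.3% of 69768 tested transcripts, 7.2% higher and 7.07% lower. Over the 63969 transcripts tested in both experiments it called 15.2%, 7.59% higher and 7.6% lower. Of the 1389 transcripts that siSTAT3 held below siHMGN5, 1353 were tested. In siSTAT3_Vec 408 of them (30.2%) were lower and 151 (11.2%) higher, and the median log2 fold change (floored) was -0.22. Of the 1504 higher ones, 1468 were tested, of which 332 (22.6%) were higher and 250 (17%) lower, with a median of 0.07. The median over all transcripts was 0.01. At a mean of at least 10 CPM, 344 were lower and 124 higher of 908 on the first side (37.9% and 13.7%). On the second, 300 were higher and 218 lower of 1063 (28.2% and 20.5%). Among all transcripts at that level, 2983 were lower and 2743 higher of 15436 (19.3% and 17.8%). Calls against the direction of the direct comparison thus stood above the share of all transcripts over all levels. At 10 CPM or more they lay below that share on the first side and near it on the second.

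The calls were then counted by the direction each transcript had in the knockdowns. Transcripts that had fallen in siSTAT3 against NC were lower in siSTAT3_Vec for 326 and higher for 85 of 937 (34.8% and 9.07%). Those that had risen in siSTAT3 were higher for 118 and lower for 50 of 327 (36.1% and 15.3%). Where siHMGN5 had fallen with no call in siSTAT3, 130 were higher and 132 lower of 776 (16.8% and 17%). Where siHMGN5 had risen with no call in siSTAT3, 29 were higher and 33 lower of 156 (18.6% and 21.2%). These shares lay near those of all transcripts at 10 CPM or more, 17.8% higher and 19.3% lower, though the classes were not limited to that level. Transcripts that had fallen in both knockdowns and more deeply in siSTAT3 gave 38 lower and 7 higher of 60 there (63.3% and 11.7%), at a median of -0.65. Those that had fallen in both and more deeply in siHMGN5 also leaned lower, with 15 lower and 3 higher of 31 (48.4% and 9.68%), at a median of -0.28. The opposite classes gave 11 higher and 10 lower of 41 (26.8% and 24.4%), and 12 lower and 10 higher of 39 (30.8% and 25.6%). Some classes are nested: the 937 hold the 60 and the 39, and the 327 hold the 41. Differences between these classes were not tested.

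**Figure D5:**
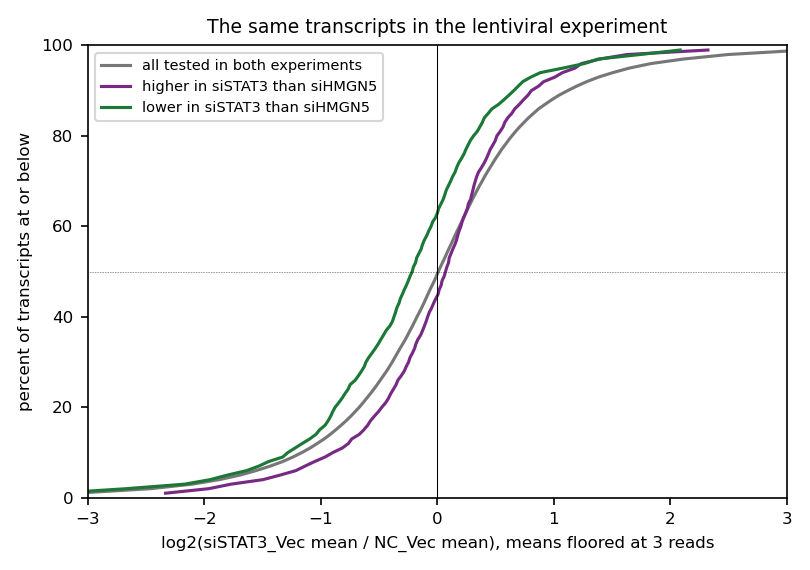
Cumulative percent of transcripts by log2 ratio of siSTAT3_Vec to NC_Vec means (floored at 3 reads), for all transcripts tested in both experiments (grey) and for those higher (purple) or lower (green) in siSTAT3 than in siHMGN5. The green curve lies to the left, with a median of -0.22, and the purple curve crosses 50% at 0.07.

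Of the 4 named transcripts with unshared reads, ENST00000295887.5 moved the same way in the lentiviral experiment, from 24.5, 21.7 and 20.7 CPM in NC_Vec to 6.71, 5.21 and 5.49 CPM in siSTAT3_Vec (3.84-fold lower, adjusted p = 0.000105). ENST00000223023.4 moved the opposite way, from 69.2, 74.4 and 71.3 CPM to 118, 111 and 117 CPM (1.61-fold higher, adjusted p = 0.000116). ENST00000374024.3, at 10.7, 8.09 and 8.83 CPM in NC_Vec and 11.9, 9.93 and 11.8 CPM in siSTAT3_Vec, did not pass the test (adjusted p = 0.252). ENST00000295927.3, which lay within the NC range in siSTAT3, was 2.31-fold lower in siSTAT3_Vec (adjusted p = 3.72e-05). The lentiviral libraries differ from the others in infection and in experiment at once, and these cannot be told apart.

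Ectopic HMGN5 in STAT3-depleted cells was examined as well, a comparison added after the data had been seen. In siSTAT3_HMGN5 against siSTAT3_Vec, 3.77% of transcripts were called, 1.52% higher and 2.25% lower. Over the transcripts tested in both experiments the share was 4.03%, 1.63% higher and 2.4% lower, and among those averaging 10 CPM or more it was 5.66% higher and 6.17% lower. Of the 39 transcripts that had fallen in siSTAT3 and risen in siHMGN5, 20 (51.3%) were lower with HMGN5 and 1 was higher, at a median of -0.40. Of the 41 with the opposite pattern, 9 (22%) were higher and 2 lower, at a median of 0.14. The 20 became 13 with a replicate block and 13 without siSTAT3_Vec replicate 1 or 2 or without siSTAT3_HMGN5 replicate 2 or 3. The 9 became 17 with DESeq2, 4 with the block, 4 without siSTAT3_Vec replicate 1 or siSTAT3_HMGN5 replicate 1, and 3 without siSTAT3_Vec replicate 2 or siSTAT3_HMGN5 replicate 3. Of the named transcripts, only ENST00000295927.3 passed the test in siSTAT3_HMGN5 against siSTAT3_Vec, 1.98-fold lower with HMGN5 (adjusted p = 0.000798). That transcript had also fallen in siHMGN5 against NC.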

How the data were processed

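Poly(A) RNA-seq libraries were grouped and numbered by the sample titles. The deposited tables give, per the file headers, an estimated count of reads for each of 175775 Ensembl transcripts (expected counts, which need not be whole), TPM values and lengths. Salmon 1.4.0 is among the tools in the submitters' processing notes, beside CASAVA, Bowtie2 and HOMER, with the builds GRCh38 and hg38; options are not given in the sources used here. A model divides reads that several transcripts could explain, so transcripts of 1 gene, near-identical copies and overlapping genes can trade reads. The deposited TPM served only for levels per length.

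Counts were rounded and fitted with edgeR 4.0.16 in R 4.3.3 (TMM scaling, filterByExpr, quasi-likelihood test on group means), with Benjamini-Hochberg adjustment over all transcripts tested and a threshold of 0.05. The siSTAT3, siHMGN5 and NC libraries shared 1 fit, and the lentiviral libraries another. Adjusted p-values come from edgeR unless another tool is named. Each standard error is the size of the log2 fold change over the root of its F statistic. CPM uses TMM-scaled library sizes. Floored means were raised to 3 reads, at most 0.16 CPM in the siRNA experiment and 0.138 CPM in the lentiviral one, which covers counting error only. Reads were called unshared where a transcript's estimates were no more than 0.0015 from whole numbers in every one of the 17 libraries.

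No table used here pairs transcripts with genes, so the comparison per gene, the gene lists and the marker checks were not run. The transcripts named are the top 2 in each direction by log2 fold change, among calls with no overlap of libraries and at least 5 CPM on average. As these were all at 0 reads in 1 group, the rule was applied again to unshared transcripts after the values were seen. The comparison and lists were chosen with earlier results of these data known. Alternatives were DESeq2 1.42.0, limma-voom (limma 3.58.1), DESeq2 size factors, no low-count filter, an effective length offset, a replicate block, other uses of the NC libraries, and each library left out. On simulated data the fit missed most of the known changes, but far fewer transcripts were changed there than were called here. The share missed in these data was therefore not measured, and a transcript without a call is not shown to be unchanged.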

Additional observations from a re-analysis of the deposited data

Results flagged for a closer look

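Among the named transcripts, 4 moved one way in every siSTAT3 library against every NC library and the other way in every siSTAT3_Vec library against every NC_Vec library. ENST00000394934.4 was above NC in siSTAT3 and, in the lentiviral experiment, had a log2 fold change of -0.99 between siSTAT3_Vec and NC_Vec (adjusted p = 0.068). ENST00000420886.6 was above NC in siSTAT3 and had -2.28 there, with 2 of the 3 siSTAT3_Vec libraries at 0 reads and the third at 19 CPM (adjusted p = 0.685). ENST00000546260.5 was at 0 reads in siSTAT3 and had 1.80 in the lentiviral experiment, from 80.2 to 95.6 CPM in NC_Vec to 286 to 317 CPM in siSTAT3_Vec (adjusted p = 1.29e-05). ENST00000223023.4, whose reads were unshared, fell in siSTAT3 and had 0.69 in siSTAT3_Vec (0.687 ± 0.0483 SE, adjusted p = 0.000116). The difference between the experiments was not tested for these transcripts.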

How the results depend on the processing

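The direct comparison had 2893 calls. It lay within 1.5 times of that with DESeq2 size factors (2873), limma-voom (2471), no low-count filter (1962) and an effective length offset (2972). So did fits of the 4 knockdown libraries only (3409) and with a replicate block (2418). Of the 2893, 2484 were at 0 reads in neither knockdown and 1976 averaged at least 10 CPM, which are subsets rather than alternatives. The direct comparison had 10169 calls with DESeq2, 6410 with NC pairs as separate groups, 5823 with NC replicates 1 and 2 only, 5093 with NC replicates 3 and 4 only, and 151 in a fit of unshared transcripts alone. Each library left out in turn gave 844 to 2533 calls. The effective length offset moved the split from 1504 higher and 1389 lower to 1357 and 1615, and the median of all transcripts at 10 CPM or more by -0.067 (log2). For siSTAT3 against NC the 3181 calls became 10653 with DESeq2 and 6259 with NC replicates 3 and 4 only, and 775 to 2349 with a library left out. For siHMGN5 against NC the 2521 became 9902 with DESeq2, 1638 without a low-count filter, 1448 with the compared groups only, 6249 with NC replicates 3 and 4 only, and 551 to 1838 with a library left out. For siSTAT3_Vec against NC_Vec the 9953 became 16960 with DESeq2 and 6994 to 8457 with a library left out. For siSTAT3_HMGN5 against siSTAT3_Vec the 2631 became 8042 with DESeq2, 1627 without a low-count filter and 1190 to 1668 with a library left out. The cause was not tested. No named transcript changed direction in any alternative.

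The titles number replicates alike in each group, but nothing says that a number marks a shared culture or day. Deviations of same-numbered siSTAT3 and siHMGN5 libraries correlated at 0.0611 over 15573 transcripts. With a replicate block the direct comparison had 2418 calls, siSTAT3 against NC 1622, siHMGN5 against NC 902 and siSTAT3_HMGN5 against siSTAT3_Vec 1156, and NC replicates 3 and 4, alone in their blocks, dropped out. Of 128 counts of classes recomputed under alternatives, 65 moved by more than 1.5 times. The comparison per gene was not run.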

Other observations

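Wider classes, which hold the opposite classes given above, were followed in siSTAT3_HMGN5 against siSTAT3_Vec. There 1.63% of all transcripts tested in both experiments were higher and 2.4% lower, and 5.66% and 6.17% of those averaging 10 CPM or more. Among transcripts that had risen in siHMGN5 and were lower in siSTAT3, 38 of 197 were lower with HMGN5 and 8 higher (19.3% and 4.06%). The 197 include the 39 opposite transcripts, and the 38 include their 20. Among those with no call in siSTAT3, 18 of 156 were lower and 6 higher (11.5% and 3.85%). For the larger set that had fallen in siHMGN5 and was higher in siSTAT3, 49 of 848 were higher and 54 lower (5.78% and 6.37%), near the shares at 10 CPM or more. Transcripts that had risen in siSTAT3 against NC, and were higher there than in siHMGN5, were higher with HMGN5 for 53 and lower for 12 of 327 (16.2% and 3.67%). The 327 include the 41 opposite transcripts, and the 53 include their 9. Among those with no call in siHMGN5, 42 of 282 were higher and 10 lower (14.9% and 3.55%). These classes were formed in libraries that the lentiviral experiment does not share, and differences between them were not tested.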
